A study of Mus musculus with 31 samples.

Results

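The 51 genes described here encode ribosome assembly factors and nucleolar proteins. They were taken as a named list, mapped by symbol to the Entrez identifiers of a count table that held 27179 genes, and all 51 were found in it. All 51 also passed the filter on low counts, which left 10275 genes for testing. The data are RNA-seq counts from 31 libraries of NK (natural killer) cells sorted from mice, lymphocytes of the innate immune system with cytotoxic function. The genotypes were wild type (WT), a knockout labelled TGFBRII KO, which lacks a TGF-beta receptor (gene Tgfbr2), and a knockout labelled CIS KO, which lacks an inhibitor of cytokine receptor signals (gene Cish). Cells of each genotype were unstimulated or had been given the cytokine TGFB1 for 4 h or 24 h. WT had 4, 2 and 4 libraries in these conditions, TGFBRII KO 3, 3 and 3, and CIS KO 4, 4 and 4. The sources used here do not give how each deletion was driven, how old the mice were or which mice the replicates came from, so p-values measure the spread between these samples.

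Ribosomes are assembled in the nucleolus, where RNA polymerase I transcribes the ribosomal RNA precursor. Small nucleolar ribonucleoproteins (snoRNPs) modify and fold that precursor, the small subunit (SSU) processome cuts out the RNA of the 40S subunit, and separate sets of factors mature the 40S and 60S subunits. Lymphocytes are known to raise the transcripts of this machinery when they are activated and start to grow.

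The shallowest library held 297561 counts and the deepest 1403005 (median 736193). The shallowest was WT 4 h replicate 1. Mean counts of the 51 genes ran from 21.0 to 912 per library. Cish was at 18.0 to 33.4 CPM (counts scaled to the TMM-adjusted library size) in unstimulated CIS KO and at 129.9 to 175 CPM in unstimulated WT. Tgfbr2 was at 221 to 237 CPM in unstimulated TGFBRII KO and at 189 to 250.4 CPM in WT. Since reads of a partly deleted gene can still be counted, this level is no check of the genotype. Of 15 NK cell markers all had counts. Of 7 B cell markers, 4 had counts, while Ms4a1, Pax5 and Ighd were at 0 in every library. The highest summed level of the 7 in any library was 6.24 CPM. That of erythroid and platelet markers was 8.63 CPM. Other lists stood higher in every library, with T cell markers at 568 to 835 CPM and myeloid markers at 134 to 320.5 CPM. Markers of type 2 and type 3 innate lymphoid cells summed to 126 to 304 CPM, and NK markers to 3807 to 9594 CPM. The lowest and highest Xist levels were 91.1 and 222 CPM among WT libraries, 12.6 and 131 CPM among those of TGFBRII KO, and 0 and 5.22 CPM among those of CIS KO. Summed Y-linked transcripts lay at 1.38 to 124 CPM, 187 to 451 CPM and 391.7 to 558 CPM in the same order, so genotype and sex-linked transcripts cannot be told apart. Within TGFBRII KO, 4 h and unstimulated libraries overlapped in both. How long unstimulated cells were kept is not given in the sources used here. Each change against them may therefore include an effect of time in culture. In bulk RNA, fewer cells of a type and less RNA per cell cannot be told apart.

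The summed level of the 51 genes was highest in TGFBRII KO cells after 4 h with TGFB1. Their CPM summed to 9289, 9478 and 9822 in the 3 libraries of that group. The sums were 6065, 6037 and 6531 in unstimulated TGFBRII KO cells and 6242, 6056 and 5879.7 at 24 h. The 4 h libraries therefore stood above every other library of this genotype, and the 24 h and unstimulated libraries overlapped. In WT the sums were 7142, 7247, 6515 and 6727 unstimulated, 6802 and 5979 at 4 h and 6326, 6107, 6268 and 6242 at 24 h. WT unstimulated and 4 h libraries overlapped, and each 24 h library was below each unstimulated one. In CIS KO they were 7752, 7473, 7845 and 7616 unstimulated, 7217, 8099, 7294 and 7585 at 4 h and 6857, 6259.8, 6348 and 6111 at 24 h. The unstimulated and 4 h libraries of CIS KO overlapped, while the 24 h libraries were the lowest of that genotype. These sums carry no test, and they weigh the abundant Ncl and Npm1 more than the other genes.

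**Figure D1:**
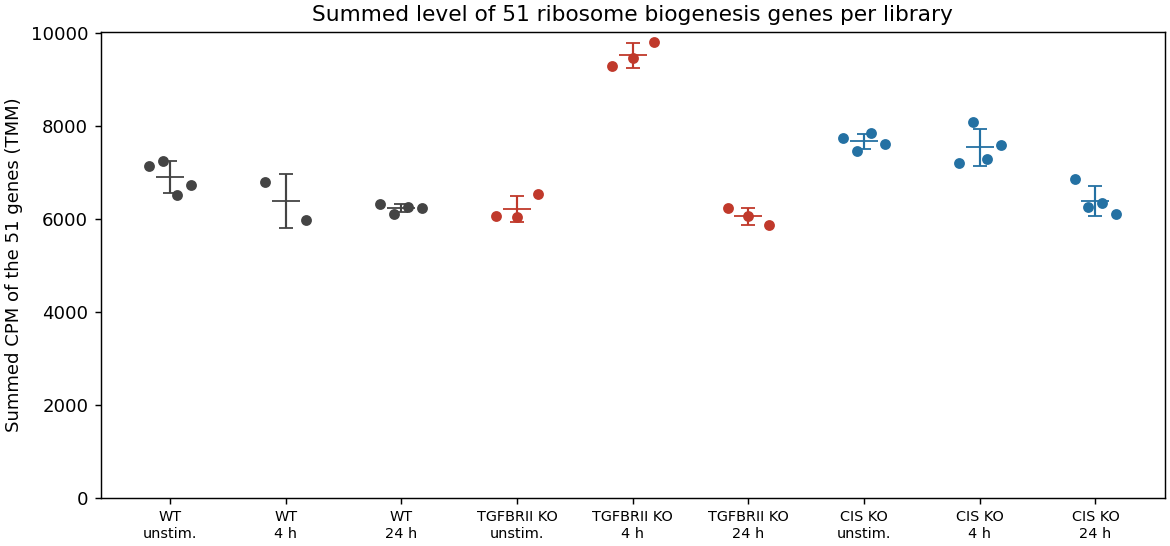
Summed CPM (TMM-scaled, y axis) of the 51 ribosome biogenesis genes in each of 31 libraries, by genotype and time with TGFB1 (x axis). Points are libraries, the horizontal mark is the group mean and bars are the SD; the 3 TGFBRII KO libraries at 4 h lie between 9289 and 9822, above all others.

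In TGFBRII KO cells at 4 h, 38 of the 51 genes were higher than in unstimulated cells and 0 were lower, where 4.57% of all genes tested were higher and 3.45% lower. The median log2 change was 0.66 over the 51 genes and -0.01 over all genes tested. Every fitted change was positive, from 0.08 for Urb2 to 1.34 for Nat10. In the 3 libraries of the group, 51, 50 and 49 of the genes were above their mean in unstimulated TGFBRII KO cells. For 46 of the 51 genes the 4 h and unstimulated libraries did not overlap, as for 15.6% of all genes in the same direction.

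The first set comprises RNA polymerase I subunits and nucleolar chaperones, of which 6 of 7 rose. Nolc1 (Entrez 70769; mm10 chromosome 19, 46075847 to 46085543), a nucleolar chaperone of snoRNPs, was at 168, 127 and 151 CPM unstimulated and at 302, 346 and 419.5 CPM at 4 h. Its groups did not overlap, and the log2 change was 1.26 ± 0.14 (SE; adjusted p = 1.0e-06). Mybbp1a (Entrez 18432; chromosome 11, 72441327 to 72451770), a nucleolar protein that binds RNA polymerase I, was at 109, 121 and 117 CPM and then at 201, 203 and 250.3 CPM. This was a change of 0.92 ± 0.11 (adjusted p = 1.3e-06), again without overlap. Polr1a and Polr1b encode the catalytic core of RNA polymerase I. Polr1a went from 44.3, 54.2 and 46.2 to 105, 90.7 and 107 CPM, by 1.07 ± 0.18. Polr1b went from 26.6, 24.1 and 18.2 to 51.8, 34.6 and 44.6 CPM, by 0.93 ± 0.24 (adjusted p = 0.014). Neither gene overlapped between the groups. Tcof1, the treacle protein of ribosomal DNA transcription, rose by 0.62 ± 0.11. Ncl, the abundant nucleolar protein nucleolin, was at 1042, 1056 and 1159 CPM and then at 1437, 1597 and 1485 CPM, a rise of 0.47 ± 0.13. Npm1, the nucleolar histone chaperone nucleophosmin, did not pass the test. It was at 426, 405 and 380.3 CPM and at 497, 539 and 461 CPM, a change of 0.30 ± 0.15 (adjusted p = 0.24), although its libraries did not overlap.

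Of the 7 snoRNP genes, 5 rose. Nop56 and Nop58 form the scaffold of the box C/D particles that guide RNA methylation. Nop58 (Entrez 55989; chromosome 1, 59684961 to 59711510) was at 244, 239.8 and 260.0 CPM unstimulated and at 397, 374 and 438 CPM at 4 h, a change of 0.70 ± 0.10 (adjusted p = 2.4e-05). Nop56 was at 57.0, 56.6 and 62.0 CPM and then at 109.6, 111 and 121 CPM, a change of 0.96 ± 0.15 (adjusted p = 6.9e-05). The groups of both genes were apart. Dkc1, the pseudouridine synthase of the box H/ACA particles, went from 128, 95.2 and 156 to 209.6, 210.2 and 247 CPM, by 0.82 ± 0.13. Rrp9, of the U3 particle, and Nhp2, of the H/ACA particles, rose by 0.66 ± 0.14 and 0.41 ± 0.13. Fbl, the methyltransferase fibrillarin of the C/D particles, was at 45.6, 41.0 and 45.0 CPM and at 59.0, 57.6 and 49.2 CPM, and its change of 0.33 ± 0.22 did not pass (adjusted p = 0.42). Gar1, the other member that did not pass, changed by 0.35 ± 0.21.

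Of the 14 genes of the SSU processome, 11 rose, led by Nat10, which acetylates cytosines of the small subunit RNA. It was at 26.6, 47.0 and 47.4 CPM unstimulated and at 96.3, 111 and 103 CPM at 4 h, a change of 1.34 ± 0.19 (adjusted p = 2.7e-05). Heatr1, Wdr43 and Wdr75 belong to the subcomplex that binds the nascent precursor first. Heatr1 went from 74.7, 90.4 and 85.1 to 157, 139.7 and 157 CPM (0.86 ± 0.13). Wdr75 went from 70.9, 80.8 and 85.1 to 139, 156 and 129 CPM (0.83 ± 0.14). Wdr43 (Entrez 72515; chromosome 17, 71616178 to 71659031) went from 322, 304 and 371 to 465, 504 and 536 CPM (0.60 ± 0.11). None of the 3 overlapped between groups. Utp20, a large scaffold protein, went from 46.9, 51.8 and 52.2 to 105, 96.5 and 113 CPM (1.06 ± 0.17). Nop14 and Noc4l, which bind each other, rose by 0.70 ± 0.16 and 0.45 ± 0.12. Utp14a, Rcl1, Pwp2 and Ddx10 rose by 0.36 to 0.63. Imp4, Nol6 and Tbl3 did not pass, with changes of 0.31 ± 0.10, 0.41 ± 0.15 and 0.32 ± 0.23.

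Among the 6 late 40S factors, 4 rose. Ltv1, which leaves the 40S precursor late in its maturation, went from 46.9, 60.3 and 57.1 to 97.6, 95.0 and 107 CPM, by 0.87 ± 0.13 (adjusted p = 7.1e-05). Rrp12, a factor of subunit export, went from 40.5, 48.2 and 49.8 to 90.3, 67.7 and 103 CPM, by 0.92 ± 0.20. Bysl (Entrez 53414; chromosome 17, 47599331 to 47611492), bystin, went from 82.3, 97.6 and 108 to 129, 134 and 139 CPM, by 0.48 ± 0.13. Tsr1, a protein that resembles a translation GTPase, rose by 0.53 ± 0.16. Pno1 and the endonuclease gene Nob1 did not pass, with 0.41 ± 0.15 and 0.23 ± 0.16. The libraries overlapped for Pno1 and did not for the other 5.

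Among the 17 genes of the 60S pathway, 12 rose. Gnl3 (Entrez 30877; chromosome 14, 31012433 to 31019131), the nucleolar GTPase nucleostemin, was at 78.5, 78.3 and 91.1 CPM unstimulated and at 184, 199 and 232 CPM at 4 h, a change of 1.31 ± 0.18 (adjusted p = 2.1e-05). Ftsj3, an RNA methyltransferase, went from 114, 129 and 156 to 208, 239 and 289 CPM (0.89 ± 0.12). Nop16 went from 83.6, 83.2 and 74.1 to 153, 158 and 158 CPM (0.96 ± 0.14). Noc2l, which accompanies the precursor through the nucleus, went from 32.9, 44.6 and 55.9 to 100.0, 85.0 and 117 CPM (1.18 ± 0.20). All 4 were without overlap. Pes1, Bop1 and Wdr12 form 1 complex, and all 3 rose, by 0.43 ± 0.11, 0.95 ± 0.22 and 0.82 ± 0.14. Nop2, which methylates the large subunit RNA, rose by 0.55 ± 0.16, and the RNA helicase genes Ddx18 and Ddx21 rose by 0.80 ± 0.22 and 0.62 ± 0.11. Rrp1b rose by 0.81 ± 0.14 and the histone-binding Grwd1 by 0.81 ± 0.16. Nle1, Noc3l, Nip7, Rrs1 and Urb2 did not pass. Of these, Nle1 was nearest the threshold, with a change of 0.76 ± 0.25 (adjusted p = 0.0504).

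The number of genes that rose was 29 to 33 when any 1 of the 6 libraries was left out, and 26 with DESeq2. Other transcripts moved in the same libraries: 3 of 8 tested T cell markers were lower and 0 higher, with a summed level of 644 to 703 CPM at 4 h and 817 to 826 CPM unstimulated. Myeloid markers summed to 155 to 209.6 CPM at 4 h and to 250.3 to 317 CPM unstimulated, with 0 of 4 called in either direction. Mitochondrial transcripts summed to 3098 to 3447 CPM at 4 h and 3071 to 3091 CPM unstimulated, with 1 of 11 higher. Their part in the result was not tested.

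**Figure D2:**
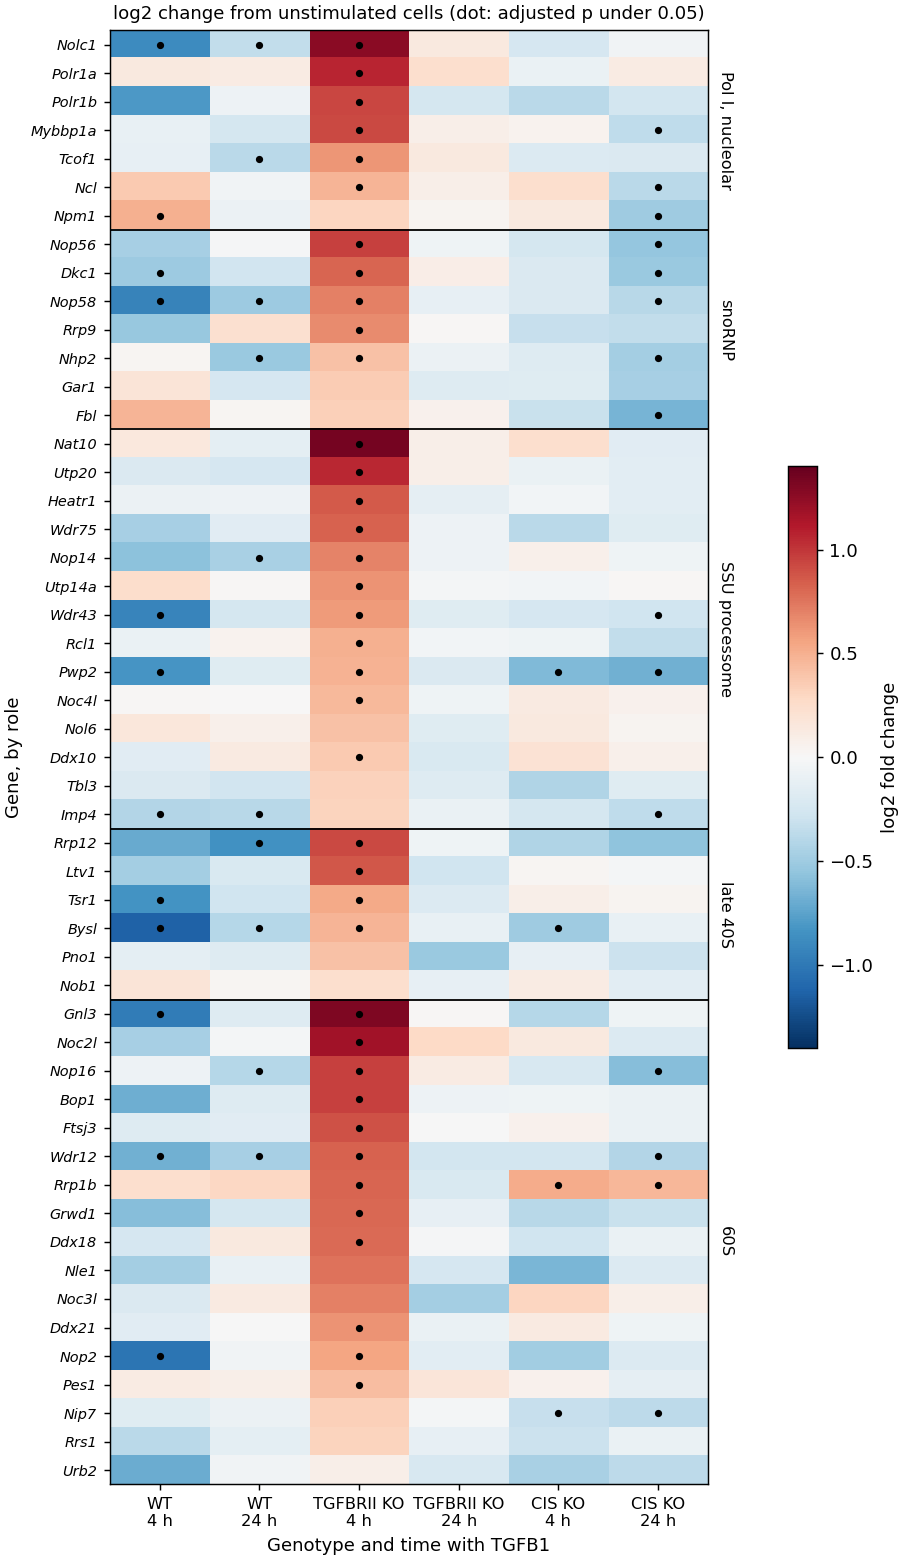
Log2 change against unstimulated cells of the same genotype (colour) for the 51 genes (y axis, grouped by role and ordered by the change in TGFBRII KO at 4 h) in 6 comparisons (x axis). A dot marks an adjusted p under 0.05; the column of TGFBRII KO at 4 h carries 38 dots, and that of TGFBRII KO at 24 h carries 0.

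In WT cells at 4 h, 11 of the 51 genes were lower and 1 was higher, where 5.03% of all genes tested were lower and 6.9% higher. The median log2 change was -0.21, and -0.02 over all genes tested. Across alternatives the median ran from -0.34 (without WT unstimulated replicate 4) to -0.17 (without WT unstimulated replicate 2), and it was -0.32 without WT 4 h replicate 1. The genes that fell came from every set, with 1 of 7 nucleolar genes, 2 of 7 snoRNP genes, 3 of 14 SSU processome genes, 2 of 6 late 40S genes and 3 of 17 genes of the 60S pathway.

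Nop58 was at 306, 336, 283 and 285 CPM in unstimulated WT cells and at 162 and 157 CPM at 4 h. The groups were apart, with a log2 change of -0.93 ± 0.13 (adjusted p = 1.9e-06). Wdr43 was at 376, 409, 408 and 367 CPM and at 177 and 224 CPM, a change of -0.92 ± 0.14 (adjusted p = 1.2e-05). Bysl was at 116, 117, 111 and 110.5 CPM and at 48.9 and 52.6 CPM, a change of -1.13 ± 0.19 (adjusted p = 5.8e-05). For Wdr43 and Bysl, too, each 4 h library was below each unstimulated one. Nolc1 was at 222, 251, 175 and 211 CPM and at 101 and 123 CPM, a change of -0.88 ± 0.18 (adjusted p = 0.0011). Nop2 was at 58.5, 51.2, 62.9 and 59.4 CPM and at 41.3 and 23.8 CPM, a change of -1.02 ± 0.23. Gnl3 was at 116, 136, 122 and 85.6 CPM and at 86.4 and 47.6 CPM, a change of -0.98 ± 0.26. The groups of Nolc1 and Nop2 were apart, and those of Gnl3 overlapped. Tsr1, Pwp2, Wdr12, Dkc1 and Imp4 fell by 0.84, 0.83, 0.68, 0.51 and 0.41 on the log2 scale. Mybbp1a, at 144, 139.8, 139 and 129.8 and then 113 and 137 CPM, changed by -0.10 ± 0.13 and did not pass. Nop56, at 62.3, 68.7, 61.2 and 70.4 and then 48.9 and 46.3 CPM, changed by -0.47 ± 0.21 and did not pass either. Its groups of 4 and 2 libraries were apart, but the share of all genes apart in WT at 4 h was not counted. Polr1b, at 29.2, 38.7, 31.02 and 30.4 and then 11.3 and 21.3 CPM, changed by -0.80 ± 0.33 (adjusted p = 0.10).

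Npm1 was the 1 gene that rose. It was at 446, 448, 351 and 436 CPM unstimulated and at 733 and 484 CPM at 4 h, a change of 0.50 ± 0.17 (adjusted p = 0.044). Ncl, at 1258, 1225, 1051 and 1233 and then 1785 and 1305 CPM, and Fbl, at 50.8, 37.5, 31.9 and 58.0 and then 75.2 and 53.9 CPM, did not pass. All 3 genes were higher in replicate 1 of the 4 h libraries than in replicate 4. The summed CPM of 85 ribosomal protein genes was also higher in replicate 1, at 29146 against 14988. Other lists stood apart from unstimulated WT as well: mitochondrial transcripts at 3591 to 4934 CPM against 2843 to 3240.4 CPM, with 4 of 11 higher, and markers of type 2 and type 3 innate lymphoid cells at 278 to 304 CPM against 152 to 226 CPM, with 1 of 2 higher. Of 14 NK markers 3 were higher and 1 lower. The part of these in the result was not tested.

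The 2 WT libraries at 4 h set these counts. Without WT 4 h replicate 4, 5 genes were lower and 2 higher, and without replicate 1, 9 were lower and 0 higher. In each of these fits a lone library stands for WT at 4 h and is assumed to vary like the other groups. With library size alone as the scaling, 14 of the 51 genes were lower and 0 higher, beside 751 lower and 527 higher of all genes, where TMM gave 517 lower and 709 higher. Nop58, Wdr43, Bysl and Nolc1 kept their calls in all 14 alternative settings.

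**Figure D3:**
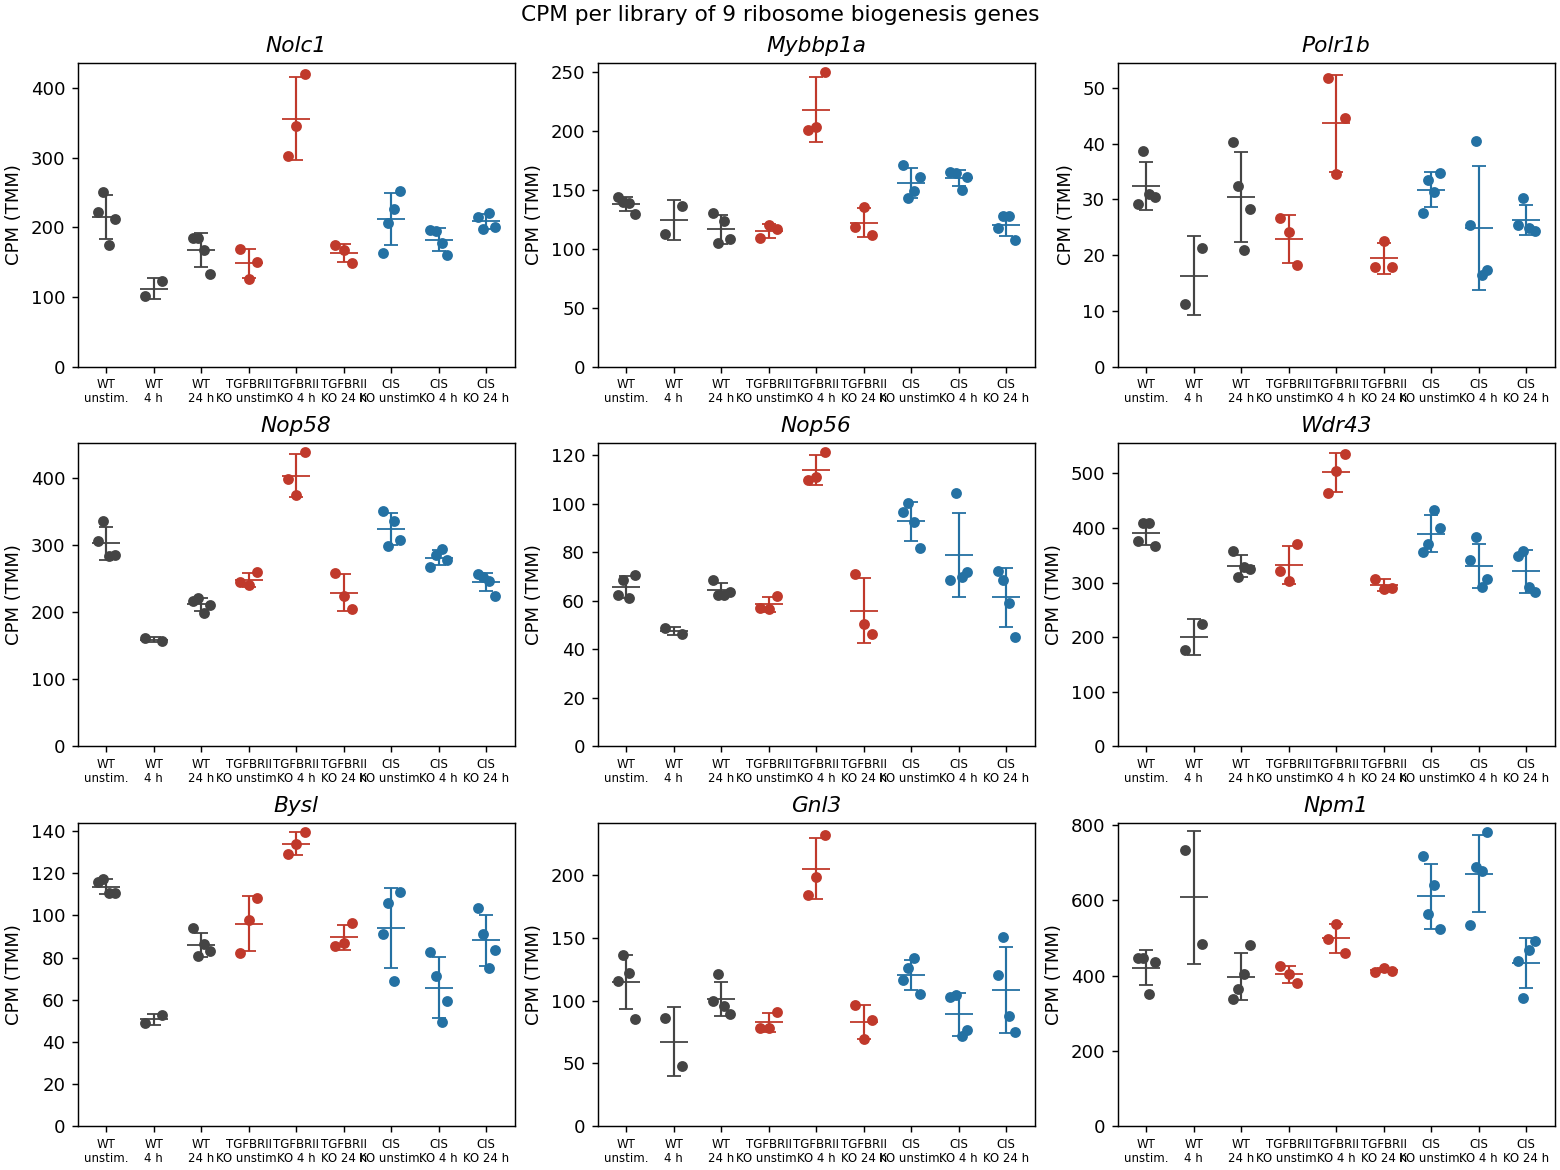
CPM (TMM-scaled, y axes from 0) of 9 of the genes in each of 31 libraries, by genotype and time with TGFB1 (x axes); points are libraries, marks and bars are mean and SD. Nolc1, Nop58, Wdr43 and Bysl are highest in TGFBRII KO at 4 h and lowest in WT at 4 h, while Npm1 is not.

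The responses of TGFBRII KO and WT at 4 h were compared as an interaction in the same fit. The response was higher in TGFBRII KO for 31 of the 51 genes and lower for 0, where 3.96% of all genes tested were higher and 3.61% lower. The median difference was 1.03 on the log2 scale, and 0.00 over all genes tested. The difference was 1.63 ± 0.16 for Nop58 (adjusted p = 3.2e-08), 2.14 ± 0.23 for Nolc1 (adjusted p = 1.8e-07) and 2.29 ± 0.32 for Gnl3 (adjusted p = 1.0e-05). For these 3 genes the change was negative in WT and positive in TGFBRII KO, each past its own threshold. Wdr43 and Bysl differed by 1.52 ± 0.18 and 1.61 ± 0.23, in the same sense. For Nat10, the change in WT was 0.15 ± 0.23 and the difference 1.19 ± 0.30. For Mybbp1a the difference was 1.02 ± 0.17. Fbl and Npm1 lay on the other side, with differences of -0.15 ± 0.34 and -0.19 ± 0.23 that did not pass. Of the 11 genes that fell in WT, 10 (90.9%) were among the 38 that rose in TGFBRII KO, of which they were 26.3%. Those comparisons share no library, but 38 of all 51 genes rose in TGFBRII KO, so most of any 11 would be among them. The exception was Imp4. With any 1 library left out, 22 to 32 genes differed, the fewest without WT 4 h replicate 4.

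**Figure D4:**
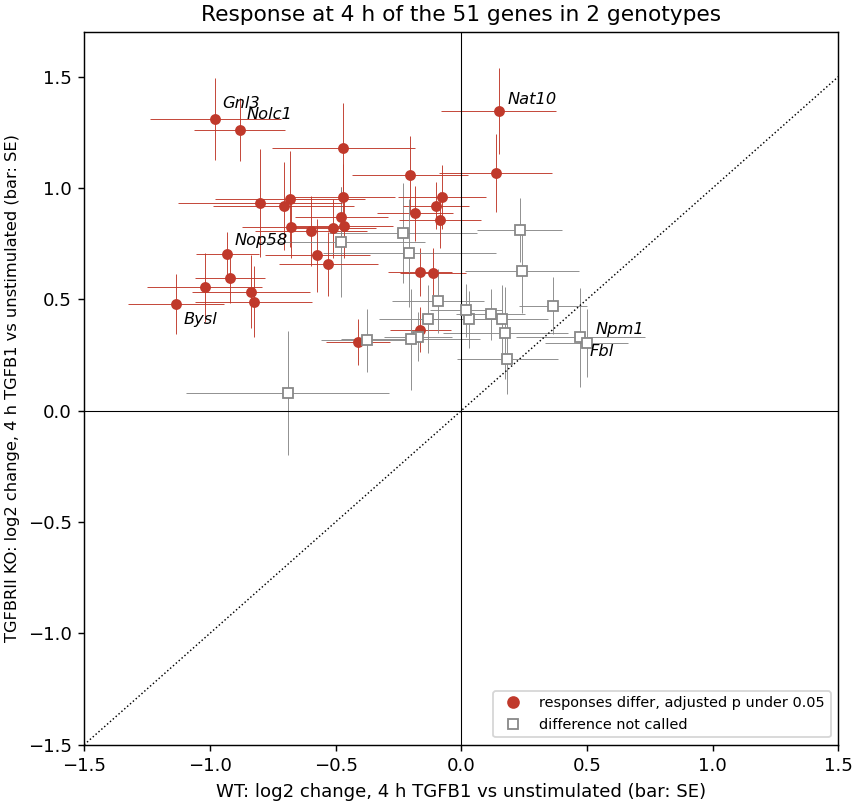
Log2 change at 4 h with TGFB1 against unstimulated cells in WT (x axis) and in TGFBRII KO (y axis) for the 51 genes, with SE bars; the dotted line marks equal changes. Filled red circles mark the 31 genes whose responses differed, and all of them lie above the line.

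At 24 h the genes were near their unstimulated level in TGFBRII KO cells. Against unstimulated cells, 0 of the 51 genes passed edgeR's test and 0 passed DESeq2's. Of the 51 genes, 2 had an unadjusted edgeR p under 0.05, beside 736 of 10275 genes with RLE, another scaling. The median log2 change of the 51 genes was -0.07. This median was -0.03 without TGFBRII KO unstimulated replicate 3 and -0.11 without TGFBRII KO 24 h replicate 1. Among all genes tested, 0.0195% were higher and 0.0% lower. Against the 4 h cells, 42 of the 51 genes were lower and 0 higher, where 3.86% of all genes were lower and 4.3% higher, and the median change was -0.76. These counts share libraries with the rise at 4 h, so the values are given side by side. Nolc1 was at 174, 167 and 149 CPM at 24 h, with a change of -1.12 ± 0.14 from 4 h and 0.14 ± 0.15 from unstimulated cells. Nop58 was at 259, 224 and 205 CPM, with -0.82 ± 0.10 and -0.11 ± 0.10. Ltv1 was at 41.5, 42.7 and 51.2 CPM, with -1.15 ± 0.14 and -0.28 ± 0.15. The 24 h libraries of all 3 genes were below each 4 h library. By role, 5 of 7 nucleolar, 5 of 7 snoRNP, 13 of 14 SSU processome, 5 of 6 late 40S and 14 of 17 60S genes were lower at 24 h than at 4 h. Pno1, Noc3l, Nle1, Nol6, Imp4 and Nip7, which had not passed at 4 h, were among them. The summed T cell markers (749 to 835 CPM), myeloid markers (268 to 320.5 CPM) and mitochondrial transcripts (2779 to 2868 CPM) at 24 h also stood apart from 4 h, and their part was not tested.

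In WT cells at 24 h, 10 of the 51 genes were lower than in unstimulated cells and 0 higher, where 11.5% of all genes were lower and 9.63% higher. Of the 51 genes these were 19.6%, and the median change was -0.14 beside 0.03 over all genes. Nop58 was at 216, 221, 198 and 211 CPM, a change of -0.51 ± 0.09 (adjusted p = 3.5e-05), with every 24 h library below every unstimulated one. Nhp2 went from 155, 159, 151 and 144 to 124, 88.5, 131 and 84.6 CPM, by -0.52 ± 0.12, and Rrp12 from 50.8, 54.9, 48.6 and 53.9 to 33.6, 30.2, 25.3 and 25.2 CPM, by -0.84 ± 0.20. Both were also without overlap. Imp4, Tcof1, Wdr12, Bysl, Nop14, Nop16 and Nolc1 fell by 0.34 to 0.47 on the log2 scale. With DESeq2, 6 genes were lower.

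Between 4 h and 24 h in WT, 5 genes were higher (Wdr43, Nop2, Rrp9, Bysl and Nop58) and 2 lower (Npm1 and Nhp2), where 3.0% of all genes were higher and 4.57% lower. Wdr43 was at 357, 309.7, 328 and 325 CPM at 24 h, with a change of 0.68 ± 0.14 from 4 h. Bysl was at 94.0, 80.9, 86.4 and 83.1 CPM, with 0.74 ± 0.20. Nop2 was at 64.5, 60.4, 53.7 and 44.5 CPM, with 0.97 ± 0.23. All 3 genes therefore stood higher at 24 h than in either 4 h library. The count was 2 without WT 4 h replicate 1, 3 without WT 4 h replicate 4, 4 without WT 24 h replicate 2 and 0 when the 6 libraries were fitted alone. Of 11 mitochondrial transcripts 7 were lower in the same comparison, and their part was not tested.

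At 24 h the responses of TGFBRII KO and WT differed for 1 of the 51 genes, Tcof1, where 6.89% of all genes were higher in TGFBRII KO and 3.86% lower. Tcof1 went from 151, 179.8, 151 and 141 to 134, 131, 96.9 and 113 CPM in WT and from 129, 113 and 147 to 151, 143 and 135 CPM in TGFBRII KO. It fell in WT, without overlap, and its groups overlapped in TGFBRII KO. The difference was 0.52 ± 0.15 (adjusted p = 0.021). It was lost with DESeq2, with no filter on low counts and without any of WT unstimulated replicate 2, WT 24 h replicate 3, TGFBRII KO unstimulated replicate 1 or 2 and TGFBRII KO 24 h replicate 1 or 2.

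In CIS KO cells at 4 h, 1 of the 51 genes was higher and 3 were lower, where 7.76% of all genes were higher and 6.3% lower. The median change was -0.19 over the 51 genes. Rrp1b, a nucleolar protein of 60S assembly, was at 66.3, 94.6, 102 and 104 CPM unstimulated and at 149, 133, 121 and 131 CPM at 4 h, a change of 0.52 ± 0.14 without overlap. Pwp2, Bysl and Nip7 fell by 0.62, 0.50 and 0.33. Nolc1, at 163, 206, 226 and 252 and then 196, 195, 177 and 161 CPM, changed by -0.23 ± 0.14 and overlapped. Markers of type 2 and type 3 innate lymphoid cells summed to 214 to 269 CPM against 151 to 199 CPM unstimulated, and their part was not tested. The count of 4 became 1 without CIS KO unstimulated replicate 4 or CIS KO 4 h replicate 4, 2 without CIS KO 4 h replicate 3, and 1 with DESeq2.

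At 24 h in CIS KO, 14 of the 51 genes were lower and 1 higher, where 11.7% of all genes were lower and 12.3% higher. The median change was -0.19 beside 0.04 over all genes. Of the 7 snoRNP genes, 5 were lower. Nop58 was at 351, 299, 336 and 308 CPM unstimulated and 256, 251, 246 and 225 CPM at 24 h, a change of -0.39 ± 0.09 (adjusted p = 0.0017). Nop56 was at 96.7, 100.2, 92.3 and 81.9 CPM and 72.2, 68.8, 59.3 and 45.3 CPM, a change of -0.54 ± 0.14. Fbl was at 93.9, 53.8, 70.7 and 62.4 CPM and 49.5, 33.0, 51.5 and 47.0 CPM, a change of -0.65 ± 0.20. For all 3, each 24 h library was below each unstimulated one. Nop16 was at 177, 145, 116 and 133 CPM and 90.6, 85.6, 92.0 and 108 CPM, a change of -0.60 ± 0.13. Npm1 was at 718, 564, 640.1 and 523 CPM and 439, 341, 468 and 491 CPM, a change of -0.50 ± 0.13. Mybbp1a was at 171, 143, 149 and 161 CPM and 117, 128, 128 and 108 CPM, a change of -0.36 ± 0.10. These 3 were without overlap too. Ncl, Dkc1, Nhp2, Pwp2, Imp4, Wdr43, Wdr12 and Nip7 fell by 0.28 to 0.67, and Rrp1b stayed higher by 0.46 ± 0.14. Nolc1, at 215, 198, 219.9 and 200.2 CPM, changed by -0.05 ± 0.13. The NK markers moved with this comparison, with 5 of 14 tested lower and 0 higher and a median change of -0.41. Mitochondrial transcripts summed to 2386 to 3520.1 CPM against 3668 to 5115 CPM unstimulated, with 5 of 11 lower, and myeloid markers to 134 to 160.5 CPM against 179 to 254 CPM, with 1 of 4 lower. Of 80 ribosomal protein genes 12 were lower. The part of these in the result was not tested.

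Between 4 h and 24 h in CIS KO, Ncl, Npm1 and Mybbp1a were lower and 0 genes were higher, where 7.7% of all genes were lower and 7.75% higher. Ncl went from 1363, 1918, 1690.2 and 1797 to 1196, 982, 1169 and 1072 CPM, by -0.61 ± 0.11 (adjusted p = 2.9e-04), and its groups were apart. Myeloid markers went from 185 to 218 to 134 to 160.5 CPM, 4 of 11 mitochondrial transcripts were lower, and 4 of 14 NK markers were lower and 1 higher; their part was not tested. Without CIS KO 4 h replicate 1 or CIS KO 24 h replicate 4, 5 genes passed.

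The responses of CIS KO and WT were not shown to differ for any of the 51 genes. At 4 h, 0 passed edgeR's test and 0 passed DESeq2's, and 0.0% of all genes passed in either direction. An unadjusted edgeR p under 0.05 was seen for 8 of the 51, beside 883 of 10275 genes with RLE scaling. The difference with the smallest p was that of Nop58, at 0.73 ± 0.16 (adjusted p = 0.22). At 24 h, 0 passed either test, where 1.21% of all genes were higher in CIS KO and 0.127% lower. Of the 51 genes, 7 had an unadjusted edgeR p under 0.05, beside 1471 of 10275 genes with RLE scaling.

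In unstimulated cells, 0 of the 51 genes differed between TGFBRII KO and WT by edgeR or by DESeq2. Among all genes, 0.0681% were higher and 0.0779% lower in TGFBRII KO. Of the 51 genes, 12 had an unadjusted edgeR p under 0.05, beside 937 of 10275 genes with RLE scaling. The median difference was -0.15. Nolc1, at 168, 127 and 151 CPM in TGFBRII KO and 222, 251, 175 and 211 CPM in WT, differed by -0.52 ± 0.14 (adjusted p = 0.12), without overlap. Between CIS KO and WT, 4 genes were higher and 0 lower, where 3.19% of all genes were higher and 2.96% lower. They were Npm1 (0.54 ± 0.13), Nop56 (0.49 ± 0.14), Fbl (0.65 ± 0.20) and Nop16 (0.41 ± 0.13). The libraries of Fbl overlapped and those of the other 3 did not. The count was 0 without WT unstimulated replicate 3 or without CIS KO unstimulated replicate 1 or 3, 1 without CIS KO unstimulated replicate 2, 2 without WT unstimulated replicate 2 and 1 with DESeq2. The genotypes also differed in summed ribosomal protein transcripts, which stood at 15259 to 24517 CPM in unstimulated CIS KO and at 11081 to 14745 CPM in unstimulated WT, with 24 of 80 tested genes higher and 1 lower in CIS KO. Mitochondrial transcripts stood at 3668 to 5115 CPM and 2843 to 3240.4 CPM, with 5 of 11 higher in CIS KO. The part of these in the result was not tested.

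Genes of the same process outside the list were counted in the same way. Of 87 other ribosome assembly factors, 42 rose and 0 fell in TGFBRII KO at 4 h, with a median change of 0.41. Ddx27, an RNA helicase, rose by 0.73 ± 0.10, Ppan, a factor of 60S assembly, by 1.00 ± 0.14, and Lyar, a nucleolar protein, by 0.84 ± 0.12. In WT at 4 h, 9 of the 87 fell and 1 rose, among them Rpf2 (-0.93 ± 0.18), Nifk (-0.75 ± 0.15) and Brix1 (-0.57 ± 0.14). Of 12 further genes of RNA polymerase I transcription, 3 rose and 0 fell in TGFBRII KO at 4 h, led by Cd3eap, a polymerase I subunit, with 1.30 ± 0.19. Among genes of RNA polymerase III transcription 3 of 19 rose, led by the subunit gene Polr3d (0.77 ± 0.15), as did 3 of 13 genes of the RNA exosome, led by Exosc1 (0.74 ± 0.18). Of 19 translation factors 4 rose, with Eif4g1, the cap-binding scaffold, at 0.40 ± 0.10.

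The transcripts of the ribosomal proteins themselves were counted too. In TGFBRII KO at 4 h, 1 of 80 tested rose (Rpl7l1, a paralogue that acts in assembly, by 0.41 ± 0.10) and 0 fell, with a median change of 0.04. In WT at 4 h, 27 rose and 0 fell, with a median of 0.62. Over all genes tested, 6.9% were higher and 5.03% lower there. WT at 4 h had only 2 libraries, and their summed ribosomal protein levels were unlike. These were 29146 CPM in replicate 1, the shallowest library, and 14988 CPM in replicate 4, where unstimulated WT reached 14745 CPM. Ribosomal protein genes have many near-identical processed pseudogenes, as has Npm1, and the sources used here do not say how reads were split among copies. Myc, a transcription factor known to act on ribosome biogenesis genes, had 29.7 to 82.1 CPM in TGFBRII KO at 4 h and 47.0 to 59.5 CPM unstimulated, so its groups overlapped. In WT it had 7.52 to 12.5 CPM at 4 h and 9.22 to 64.8 CPM unstimulated, which also overlapped. Its paralogue Mycn had 37.6 to 41.3 CPM at 4 h and 52.4 to 72.4 CPM unstimulated in WT, without overlap but not past the test. In TGFBRII KO Mycn had 74.3 to 113 CPM at 4 h and 59.5 to 80.8 CPM unstimulated, which overlapped. Of 11 tested genes of the MYC and MAX family, 0 rose and 1 fell in TGFBRII KO at 4 h, and the one that fell was Mnt (-0.44 ± 0.13), a repressor that pairs with MAX. In WT at 4 h, Mxi1, another such repressor, rose by 1.39 ± 0.24.

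**Figure D5:**
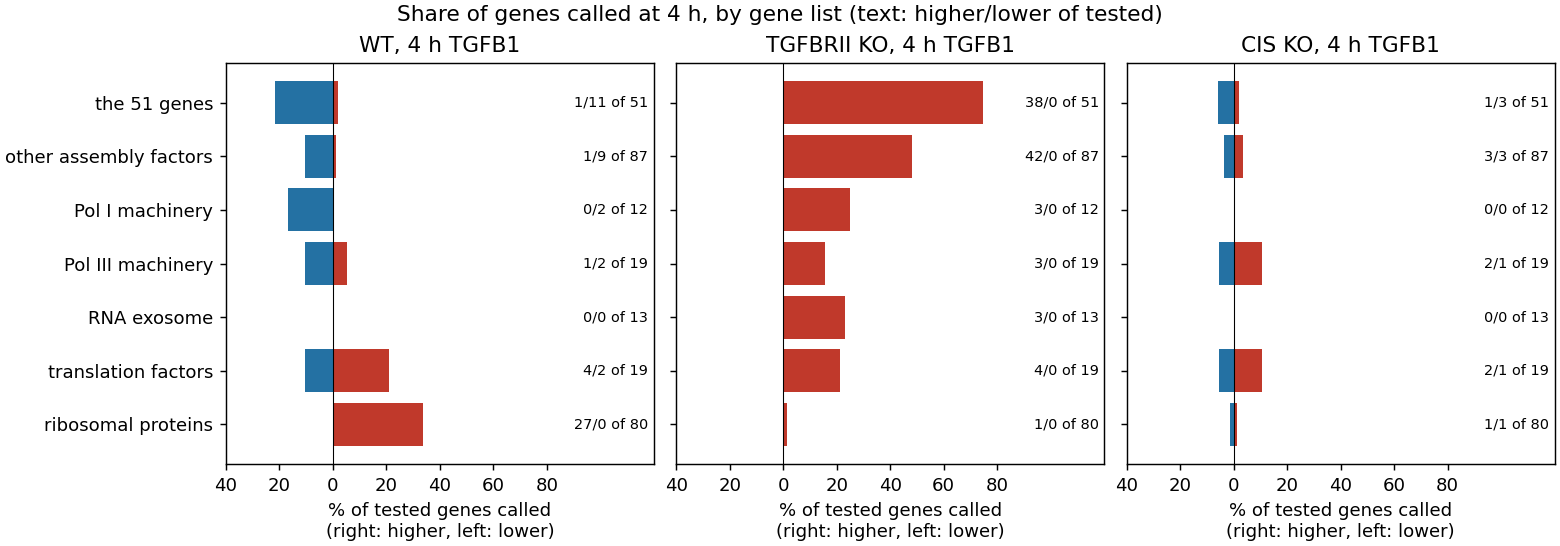
Share of tested genes (x axis, percent) called higher (red, to the right) or lower (blue, to the left) at 4 h with TGFB1 against unstimulated cells, for 7 gene lists (y axis) in 3 genotypes. The bar for the 51 genes reaches furthest to the right in TGFBRII KO (38 of 51), and that of ribosomal proteins in WT (27 of 80). WT at 4 h had 2 libraries, which differed in summed ribosomal protein level.

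Because many of the 51 genes moved together, their promoters were read for the E-box CACGTG, the core site of MYC with MAX and of related factors, which reads the same on both strands. RefSeq promoters (GRCm38.p6, the mm10 assembly, 250 bases before to 50 after the start the table uses) were matched for 43 of the 51 genes. That start can lie inside the outer bounds of the gene, as for Wdr43, Grwd1 and Nle1. Of these, 11 (25.6%) held the motif, beside 8.09% of 27025 genes in the same table. The 2 sets are unlike: all 43 genes passed the filter on low counts, which kept 10275 genes, while the 27025 include genes it left out. The median GC content was 59.0% for the 43 genes and 52.7% for all genes, and the median number of CG pairs, which the motif itself contains, was 21 and 7. The part of base composition, or of this filter, in the share with the motif was not tested. Of the 35 matched genes that rose in TGFBRII KO at 4 h, 8 (22.9%) held it, and of the 8 that did not pass, 3 (37.5%). The motif started before that start in 2 of the 11 and after it in 9. The matched stretches are shown 5′ to 3′ on the gene's strand, with the E-box in capitals, for all 11 genes, to let the flanks be compared. A match is a description of the letters, not of binding.
Imp4 (chr1:34439696-34439725, plus strand): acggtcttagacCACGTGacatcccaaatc
Nop2 (chr6:125131811-125131840, plus strand): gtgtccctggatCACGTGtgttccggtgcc
Grwd1 (chr7:45830740-45830767, minus strand): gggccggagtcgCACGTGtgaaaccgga
Ltv1 (chr10:13193092-13193121, minus strand): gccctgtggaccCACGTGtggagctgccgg
Utp20 (chr10:88826765-88826789, minus strand): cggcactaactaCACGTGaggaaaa
Pes1 (chr11:3963965-3963994, plus strand): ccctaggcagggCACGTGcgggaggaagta
Pno1 (chr11:17211540-17211564, minus strand): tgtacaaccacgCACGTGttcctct
Mybbp1a (chr11:72441355-72441376, plus strand): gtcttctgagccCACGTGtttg
Tsr1 (chr11:74898092-74898121, plus strand): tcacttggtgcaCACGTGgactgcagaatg
Nle1 (chr11:82908355-82908384, minus strand): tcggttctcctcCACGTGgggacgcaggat
Wdr43 (chr17:71616220-71616249, plus strand): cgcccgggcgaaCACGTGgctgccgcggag

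For Nop2, whose E-box lies 60 bases before the start, the 250 bases before the start are shown, again with the E-box in capitals (chr6:125131633-125131882, plus strand). They are set beside those of Nolc1 (chr19:46075597-46075846, plus strand), a gene that, like Nop2, fell in WT and rose in TGFBRII KO at 4 h. The window of Nolc1 does not hold these letters. GC content was 67.6% for Nop2 and 56.4% for Nolc1.
Nop2: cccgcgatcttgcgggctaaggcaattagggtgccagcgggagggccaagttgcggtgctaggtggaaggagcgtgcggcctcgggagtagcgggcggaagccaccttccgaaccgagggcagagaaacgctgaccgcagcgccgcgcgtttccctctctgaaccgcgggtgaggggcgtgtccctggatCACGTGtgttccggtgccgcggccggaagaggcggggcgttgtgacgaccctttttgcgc
Nolc1: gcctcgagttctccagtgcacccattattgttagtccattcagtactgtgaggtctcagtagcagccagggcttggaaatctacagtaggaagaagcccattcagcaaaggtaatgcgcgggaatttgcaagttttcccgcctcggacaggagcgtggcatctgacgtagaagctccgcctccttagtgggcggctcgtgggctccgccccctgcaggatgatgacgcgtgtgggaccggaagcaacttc

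Some values rest on shared or few reads. Of the 51 genes, 16 overlap another counted gene on the mm10 assembly, and the sources used here do not give the strand setting of the counting. Nat10 overlaps Caprin1, Ftsj3 overlaps Ddx42, and Gnl3 overlaps Glt8d1. In TGFBRII KO at 4 h these neighbours changed by 0.24 ± 0.10, 0.31 ± 0.16 and -0.22 ± 0.30, and none of the 3 passed. Bysl overlaps Ccnd3, which changed by -0.93 ± 0.32 in WT at 4 h (adjusted p = 0.053). Tsr1 overlaps Srr, which changed by -1.02 ± 0.33 (adjusted p = 0.059) in the same comparison. Nhp2 overlaps Rmnd5b, which rose by 0.71 ± 0.19 in WT at 4 h. Nop56, Nop58, Ncl, Wdr43 and Tsr1 hold small nucleolar RNA genes, whose reads were listed apart. In none of the 6 comparisons with unstimulated cells did Gar1, Noc3l, Rrs1, Nob1, Pno1, Urb2, Tbl3, Nol6 or Nle1 pass, which leaves 42 genes that passed at least once.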

How the data were processed

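The series holds 31 RNA-seq libraries of sorted NK cells. The deposited values are raw counts of reads per Entrez gene; FastQC, Trimmomatic, Subread, featureCounts, Picard and SAMtools with the mm10 assembly are named, per the submitters' processing notes, without roles or versions. Strand setting and multi-mapping rules: not given in the sources used here. Symbols came from a RefSeq gene table: 1904 identifiers (0.958% of counts) had none.

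All 9 groups were fitted together with edgeR 4.0.16 (filterByExpr, TMM, quasi-likelihood F-test; R 4.3.3, limma 3.58.1), with Benjamini-Hochberg adjustment over 10275 genes. Calls required an adjusted p under 0.05, which is the meaning of rose, fell, higher and lower. The SE of a log2 change is its size divided by the square root of F. Of 15 comparisons, 6 set TGFB1 against unstimulated cells, 3 set 24 h against 4 h, 2 compared genotypes in unstimulated cells and 4 compared responses. The genes and lists were chosen with earlier results of these data known. Any of the 51 genes may be named; values in every library are given for those among the 4 smallest p of their role in a response and for Nolc1, Mybbp1a, Nop56, Fbl, Ncl, Npm1 and Polr1b, and at most 3 genes with the smallest p are named from each other list. Overlapping neighbours and a few further per-library values were chosen after seeing the data.

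Samples were treated as unpaired. Alternatives were other scalings, no filter, a depth covariate, a replicate block, only the libraries compared, DESeq2 1.42.0 and each replicate left out. A further alternative, chosen after seeing the data, counted the best agreeing pair of replicates of a group as 1 sample. This was done where the pair differed by no more than sampling noise. Other such pairs stayed separate, in TGFBRII KO at 24 h (chi-square per degree of freedom 0.795 and 0.999) and unstimulated (0.872). Depth limits precision.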

Additional observations from a re-analysis of the deposited data

Results flagged for a closer look

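The response at 4 h differed between TGFBRII KO and WT, by an interaction test over all genes, for 31 of the 51 genes. The differences (TGFBRII KO minus WT, log2) in the nucleolar set were 2.14 for Nolc1, 1.73 for Polr1b, 1.02 for Mybbp1a, 0.93 for Polr1a and 0.73 for Tcof1. In the snoRNP set they were 1.63 for Nop58, 1.43 for Nop56, 1.33 for Dkc1 and 1.19 for Rrp9. In the SSU processome they were 1.52 for Wdr43, 1.32 for Pwp2, 1.30 for Wdr75, 1.27 for Nop14, 1.26 for Utp20, 1.19 for Nat10, 0.94 for Heatr1, 0.72 for Imp4 and 0.53 for Ddx10. Among late 40S factors they were 1.63 for Rrp12, 1.61 for Bysl, 1.37 for Tsr1 and 1.34 for Ltv1. In the 60S pathway they were 2.29 for Gnl3, 1.65 for Noc2l, 1.63 for Bop1, 1.57 for Nop2, 1.502 for Wdr12, 1.404 for Grwd1, 1.07 for Ftsj3, 1.04 for Nop16 and 0.79 for Ddx21. At 24 h the response of Tcof1 differed by 0.52.

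Single libraries stood far from the other 3 of their group in 14 of 260 groups of 4 libraries (5.38%), and chance alone flags about 1 in 20 groups. Nop56 was at 105 CPM in CIS KO 4 h replicate 2 and at 68.8 to 71.7 CPM in the others. Ncl was at 1051 CPM in WT unstimulated replicate 3 and at 1225 to 1258 CPM in the others. Npm1 was at 351 CPM in WT unstimulated replicate 3 and at 436 to 448 CPM in the others. Wdr75 was at 82.9 CPM in CIS KO unstimulated replicate 1 and at 106 to 108 CPM in the others. Utp14a was at 85.3 CPM in CIS KO 4 h replicate 1 and at 40.4 to 47.3 CPM in the others. Bop1 was at 39.0 CPM in CIS KO 24 h replicate 3 and at 53.8 to 56.0 CPM in the others. Pes1 was at 137 CPM in WT unstimulated replicate 4 and at 122.0 to 122.4 CPM in the others. Ddx21 was at 325 CPM in WT 24 h replicate 3 and at 309 to 311 CPM in the others. Gar1 was at 80.6 CPM in WT 24 h replicate 1 and at 143 to 147 CPM in the others. Ltv1 was at 58.3 CPM in WT 24 h replicate 2 and at 51.03 to 52.2 CPM in the others. Ltv1 was at 58.9 CPM in CIS KO unstimulated replicate 3 and at 70.5 to 72.1 CPM in the others. Nob1 was at 117 CPM in CIS KO 4 h replicate 3 and at 95.1 to 98.9 CPM in the others. Nat10 was at 47.0 CPM in WT unstimulated replicate 4 and at 62.9 to 64.9 CPM in the others. Tcof1 was at 109 CPM in CIS KO 4 h replicate 2 and at 131 to 132 CPM in the others.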

How the results depend on the processing

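In TGFBRII KO at 4 h, 26 (DESeq2) to 44 (log2 library size as a covariate) genes were called, and 25 of its 38 calls held in all alternatives. From 4 h to 24 h in TGFBRII KO 36 to 48 were called, and for the difference in response at 4 h 22 to 35. No call reversed. In WT at 4 h, 12 genes became 7 with the replicate block, 6 with only the libraries compared, 7 with DESeq2 and 7 to 11 with 1 replicate left out. In WT at 24 h, 10 became 6 with DESeq2. In TGFBRII KO at 24 h, 0 became 1 with only the libraries compared. In CIS KO at 4 h, 4 became 1 with DESeq2 and 1 to 4 with 1 replicate left out. From 4 h to 24 h, 7 WT genes became 0 with only the libraries compared, 3 with DESeq2, 4 with agreeing pairs counted as 1 sample and 2 to 8 with 1 replicate left out, and 3 CIS KO genes became 3 to 5 with 1 left out. In unstimulated cells, 0 genes between TGFBRII KO and WT became 1 without the filter. For CIS KO against WT, 4 became 1 with library size alone, 0 with the depth covariate, 1 with DESeq2, 0 with agreeing pairs counted as 1 and 0 to 6 with 1 replicate left out. The difference in response at 24 h went for TGFBRII KO from 1 to 2 with library size alone, 0 without the filter, 5 with the depth covariate, 2 with only the libraries compared, 0 with DESeq2 and 0 to 2 with 1 left out. For CIS KO it went from 0 to between 0 and 1 with 1 left out. Summed levels with library size alone were 6341 CPM in WT at 24 h, 7504 CPM in unstimulated CIS KO and 7146 CPM in CIS KO at 4 h. The cause of these shifts was not tested.

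The replicate block changed no other count by over 1.5 times: it gave 35 genes in TGFBRII KO at 4 h, 42 from 4 h to 24 h and 28 for the difference in response at 4 h. Same-numbered libraries correlated in their deviations from group means at -0.39 to 0.11 in WT, 0.02 to 0.20 in TGFBRII KO (median 0.10, and -0.05 for other numbers) and -0.23 to 0.25 in CIS KO. All 9 values were positive in TGFBRII KO. Deviations from a group mean cancel within the group, so the values for other numbers depend on those for the same number. The 9 values also depend on each other. The sources used here do not say whether same-numbered libraries share mice, so samples were treated as unpaired, with the replicate block as the alternative. Library size alone as the scaling turned the split of all genes to 1193 higher and 520 lower from 4 h to 24 h in CIS KO (796 and 791 with TMM), to 279 and 520 for CIS KO against WT (328 and 304), to 426 and 364 from 4 h to 24 h in WT (308 and 470), and to 491 and 287 for the difference in response at 4 h (407 and 371). Genes near 21.0 mean counts have the least precision.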
